A study of Mus musculus with 8 samples.

Results

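The genes described here are 7 channel and connexin genes of the mouse left ventricle, taken by symbol from a table of 49671 genes: the sodium channel genes Scn10a, Scn4a and Scn4b, the gap junction genes Gja1 and Gja5, and the pacemaker channel genes Hcn2 and Hcn4. All 7 were found, and all 7 were among the 16432 genes tested. The mice were C57BL/6N males aged 8 weeks at the start, and the polyadenylated RNA of their left ventricles was sequenced. The operation was either a sham procedure or transverse aortic constriction (TAC), which narrows the aorta and so overloads the left ventricle, and the ventricle was sampled 4 weeks later. One diet, SFA, was low in fat, and in the other, SFA-EAA, free essential amino acids took the place of 93.5% of the casein. Sham SFA, TAC SFA, sham SFA-EAA and TAC SFA-EAA each had 2 libraries, and no genetic change is named in any group. Nothing in the labels says that each library is a mouse of its own, so the p-values measure only the spread between these libraries.

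Voltage-gated sodium channels carry the inward current that starts the action potential of working cardiomyocytes, and gap junctions built of connexins pass that current from cell to cell. Hyperpolarization-activated cyclic nucleotide-gated (HCN) channels carry the pacemaker current and are most abundant in the sinoatrial node and the conduction system, with lower levels in ventricular muscle. Among the 7 genes, Scn10a encodes the Nav1.8 alpha subunit known best from sensory neurons, Scn4a encodes the Nav1.4 alpha subunit of skeletal muscle, and Scn4b encodes a beta subunit that modulates alpha subunits. Gja1 encodes connexin 43, the main connexin of ventricular muscle, and Gja5 encodes connexin 40 of atria, conduction fibres and arterial endothelium. Hcn4 encodes the principal sinoatrial HCN isoform, and Hcn2 a second cardiac isoform. In whole ventricle, fewer cells of a type and less RNA per cell cannot be told apart.

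Deposited values of a library summed to between 5136441 and 6298743. The natriuretic peptide gene Nppa, a marker of overload, lay between 1013 and 1299.5 in the 4 sham libraries and between 3343 and 20406 in the 4 TAC libraries. Markers of ventricular muscle were abundant in all libraries. The 8 libraries differed in base composition. In sham SFA-EAA replicates 1 and 2 and in TAC SFA-EAA replicate 2, the deviation of genes from their mean fell with GC content: Spearman's rho was -0.59, -0.40 and -0.70 over 11387 genes, which are a description and not replicates. It rose with GC content in the other 5 libraries, with rho between 0.32 and 0.48, and TAC SFA-EAA replicate 1 was among these. Myl7, a myosin light chain gene of atrial muscle, was highest at 621.3 in replicate 1 of sham SFA, followed by 321.9 in replicate 2 of TAC SFA, and lay between 1.28 and 43.0 elsewhere.

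Because of that difference in base composition, the GC content of the member transcripts is described here, with the coding starts of 3 of the genes. In sham hearts the trend with GC content was negative in both SFA-EAA libraries and positive in both SFA libraries. Diet and this trend cannot be told apart there. Hcn2 had a transcript GC content of 65.4%, higher than 99.7% of the tested genes, Hcn4 58.0% and Scn10a 52.8%, against a median of 49.6% over the tested genes with a transcript sequence. The lowest member was Gja1 at 42.2%, below which lay 13.4% of the tested genes. The first 120 coding bases from GENCODE M21 transcripts (GRCm38) are given 5′ to 3′, with G and C in capitals. They lie at chr10:79716669-79716788 on the plus strand for Hcn2, at chr9:58823512-58823631 on the plus strand for Hcn4 and at chr9:119694206-119694325 on the minus strand for Scn10a, in exons 1, 1 and 2.
Hcn2: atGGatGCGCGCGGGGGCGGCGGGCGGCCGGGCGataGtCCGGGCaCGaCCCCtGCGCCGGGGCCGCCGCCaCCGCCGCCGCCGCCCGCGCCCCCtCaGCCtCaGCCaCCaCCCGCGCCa
Hcn4: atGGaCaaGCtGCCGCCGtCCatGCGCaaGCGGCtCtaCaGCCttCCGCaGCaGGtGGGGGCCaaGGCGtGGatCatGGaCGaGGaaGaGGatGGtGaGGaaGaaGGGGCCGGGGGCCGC
Scn10a: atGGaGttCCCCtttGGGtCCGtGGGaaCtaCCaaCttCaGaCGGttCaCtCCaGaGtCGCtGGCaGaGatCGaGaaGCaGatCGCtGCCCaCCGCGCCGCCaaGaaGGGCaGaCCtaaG
G and C made up 84.2% of the Hcn2 stretch, 66.7% of the Hcn4 stretch and 59.2% of the Scn10a stretch.

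**Figure D1:**
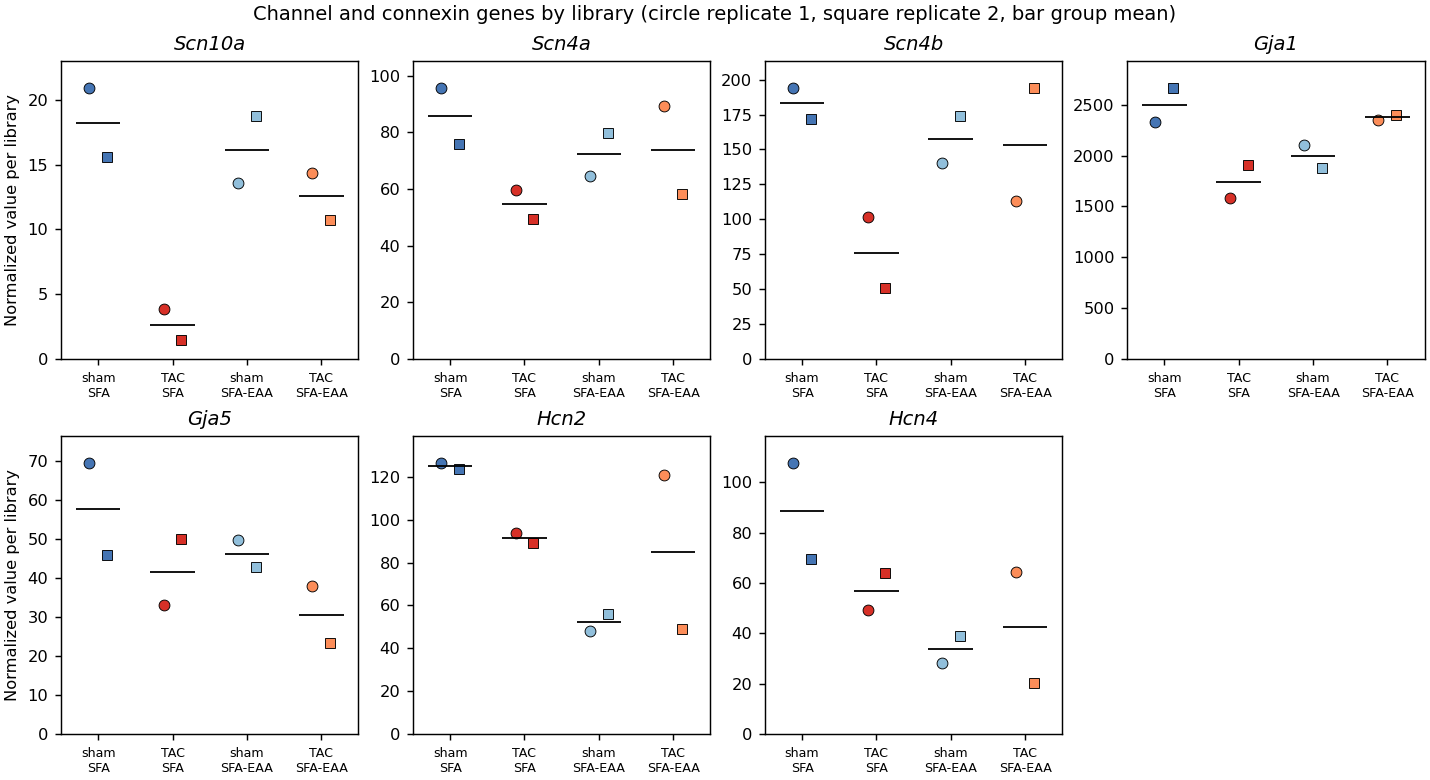
Deposited normalized values (vertical axes, from 0) of the 7 genes in each library of the 4 groups (horizontal axes). Circles are replicate 1, squares replicate 2 and bars group means, with n = 2 libraries per group. Both TAC SFA libraries lie below the other 6 for Scn10a, at 3.82 and 1.43.

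Per kilobase of gene length as deposited, averaged over the 8 libraries, Gja1 was the most abundant of the 7 at 693.1, and its lowest library (508.1) lay far above the highest of any other member. Scn4b at 28.6 and Hcn2 at 27.7 followed, and their ranges over the libraries overlapped. Scn4a at 10.2, Hcn4 at 9.03 and Gja5 at 7.65 came next, again with overlapping ranges. Scn10a was lowest at 1.56 per kilobase, and its highest library (2.62) was below the lowest of Gja5 (4.04).

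Scn10a (ENSMUSG00000034533, chromosome 9, 119608456 to 119719322, GRCm38, minus strand) was the 1 member with a called difference. Its values were 20.9 and 15.6 in sham SFA and 3.82 and 1.43 in TAC SFA. Under SFA-EAA they were 13.6 and 18.8 in sham hearts and 14.3 and 10.7 in TAC hearts. The SFA groups did not overlap, and the SFA-EAA groups did. Under SFA, Scn10a fell with TAC from a mean of 18.2 ± 3.76 to one of 2.62 ± 1.69 (SD over the 2 libraries of each group). The log2 fold change was -2.48 with an SE of 0.45 (limma adjusted p = 0.0409), which is 5.57-fold on the log2(value + 1) scale. That scale is used for every log2 value here and understates the change of low genes, so this fold is smaller than the ratio of the means. Under SFA-EAA its log2 fold change was -0.34 (95% interval -1.37 to 0.69, limma adjusted p = 0.881). How many reads lie behind the low TAC SFA values is unknown, because the deposited values are normalized. The call under SFA was lost without sham SFA replicate 1 or 2 (limma adjusted p = 0.29 and 0.275), TAC SFA replicate 1 or 2 (adjusted p = 0.07 and 0.311) or sham SFA-EAA replicate 1 or 2 (adjusted p = 0.0734 and 0.074). It was also lost with a pseudocount of 0.25 (adjusted p = 0.0539), without the filter on low values (0.0967), with a replicate block (0.0686) and in a fit to the 4 libraries compared (0.171), while the log2 fold change ranged from -2.97 to -1.78 over all these settings and others.

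In the SFA comparison, TAC against sham, 1 of the 7 genes was called lower and none higher, where 0.414% of all tested genes were called lower and 0.834% higher. Of the 7, 6 had both TAC SFA libraries below both sham SFA libraries, an arrangement seen in 23.1% of the tested genes. With GC-corrected values 3 were called lower, Scn10a, Scn4b and Gja1, where 2.69% of genes were. All 7 log2 fold changes were negative, with a median of -0.61 against 0.01 over all tested genes.

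Scn4b (ENSMUSG00000046480, chromosome 9, 45138395 to 45154152, plus strand) had values of 193.9 and 172.0 in sham SFA and 101.4 and 50.7 in TAC SFA. Under SFA-EAA it stood at 140.6 and 173.9 in sham hearts and at 113.0 and 193.9 in TAC hearts, so that the TAC SFA libraries were the lowest of the 8. The log2 fold change under SFA was -1.34 (SE 0.34, limma adjusted p = 0.106) and did not pass. It passed with GC-corrected values (adjusted p = 0.0477), with library weights (0.0282) and without TAC SFA-EAA replicate 1 (0.0252) or replicate 2 (0.0269). Under SFA-EAA it was -0.08 (95% interval -0.84 to 0.68, limma adjusted p = 0.985).

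Scn4a (ENSMUSG00000001027, chromosome 11, 106318592 to 106353288, minus strand) had values of 95.6 and 75.9 in sham SFA and 59.7 and 49.5 in TAC SFA. Its SFA-EAA values were 64.5 and 79.9 in sham hearts and 89.2 and 58.1 in TAC hearts. Only the SFA groups were apart, and the log2 fold change there was -0.64 (SE 0.26, limma adjusted p = 0.321), against 0.00 under SFA-EAA. Of 11 skeletal muscle genes, the defining genes Myh1, Myh2, Myh4, Myod1 and Myf6 were listed at 0 in all 8 libraries. The sum of the list was 112.1 to 206.7 in sham SFA and 328.2 to 333.4 in TAC SFA, where Scn4a was lower with TAC. Under SFA-EAA it was 135.6 to 158.3 in sham hearts and 191.9 to 217.9 in TAC hearts, where the Scn4a groups overlapped. The part of skeletal muscle in the Scn4a values was not tested.

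Across the 8 libraries the pattern of Scn4b was close to that of Scn10a (Pearson r = 0.89 on the log2 scale), and that of Scn4a less so (r = 0.83). These correlations are a description over 8 libraries that differ in base composition, and all genes of a library share its base composition and scaling. The genes whose patterns were most like that of Scn10a, among 10890 genes compared, were Car14, which encodes a membrane carbonic anhydrase (r = 0.98), and Aldh5a1, succinate semialdehyde dehydrogenase (r = 0.98). Car14 stood at 801.8 and 790.7 in sham SFA, 489.6 and 446.5 in TAC SFA, 777.4 and 818.5 in sham SFA-EAA and 753.0 and 668.7 in TAC SFA-EAA. It fell under SFA as well (log2 fold change -0.77, limma adjusted p = 0.0187). The genes nearest to Scn4b were Amz2 and Dkc1 (both r = 0.96), and those nearest to Scn4a were Gzmm and Ank1 (both r = 0.97).

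Summed markers of other cells followed these values only in part. The nerve and Schwann cell sum was lower with TAC on both diets, while the Scn10a groups overlapped under SFA-EAA. The summed level of 12 nerve and Schwann cell genes was 92.0 to 101.8 in sham SFA and 44.3 to 77.7 in TAC SFA, and 98.7 to 127.8 and 50.5 to 61.4 in the corresponding SFA-EAA groups. Of the defining nerve genes, Snap25 was at 0 in all libraries and Th stayed below 1. Their part in the Scn10a values was not tested. Of 10 atrial genes, with Bmp10 at 0, the sum ran from 656.6 to 2164 in sham SFA and from 342.4 to 1695 in TAC SFA, and from 440.2 to 735.0 in the SFA-EAA libraries. Without the libraries with the 2 highest atrial sums, sham SFA replicate 1 and TAC SFA replicate 2, the log2 fold change of Scn10a was -1.78 (limma adjusted p = 0.864, with 1 library left in each SFA group).

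Gja1 (ENSMUSG00000050953, chromosome 10, 56377300 to 56390419, plus strand) had values of 2327 and 2663 in sham SFA and 1578 and 1907 in TAC SFA. Under SFA-EAA the values were 2108 and 1878 in sham hearts and 2353 and 2402 in TAC hearts. TAC libraries thus lay below sham libraries on the SFA diet and above them on the SFA-EAA diet, with no overlap on either, and 1.94% of the tested genes had this arrangement. The log2 fold changes of -0.52 under SFA (SE 0.13, limma adjusted p = 0.109) and 0.26 under SFA-EAA (adjusted p = 0.633) did not pass. Their difference was 0.78 with an SE of 0.19, and with an unadjusted limma p of 0.00242 it did not pass over all genes either (limma adjusted p = 0.785). The SFA value passed with GC-corrected values (adjusted p = 0.0423), with library weights (0.0377) and without TAC SFA-EAA replicate 1 (0.0346) or replicate 2 (0.0354).

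The promoter of Gja1 is shown because of this crossed pattern: it is the 250 bases before the RefSeq start (GRCm38.p6, chr10:56377050-56377299, plus strand), with matches to 2 searched motifs in capitals.
Gja1 promoter: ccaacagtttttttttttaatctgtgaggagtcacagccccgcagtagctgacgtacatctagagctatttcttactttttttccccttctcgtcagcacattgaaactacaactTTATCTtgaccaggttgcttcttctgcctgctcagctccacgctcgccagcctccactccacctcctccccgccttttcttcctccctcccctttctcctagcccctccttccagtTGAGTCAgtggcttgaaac
In all, 6 motifs were searched on both strands in the promoters of all 7 genes. AP-1 (TGANTCA) was found in Gja1, as in 6.75% of 32851 promoters of that length, and the motif bound by GATA factors (AGATAA) was also in Gja1, as in 9.99%. Sp1 (GGGCGG) was found in Gja5, Hcn2 and Hcn4, as in 32.7%, and a T-box motif (AGGTGT) in Hcn4, as in 11.8%. The letters TATAAA and CACTTAA (NKX2-5) were in none of the 7. These matches describe letters and show no binding.

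Gja5 (ENSMUSG00000057123, chromosome 3, 96904693 to 97077416, plus strand) had values of 69.4 and 45.7 in sham SFA and 33.1 and 49.9 in TAC SFA, which overlapped. Under SFA-EAA both sham libraries (49.7 and 42.7) were above both TAC libraries (37.9 and 23.2), as in 18.0% of the tested genes, while Gja1 was among the 18.5% with both TAC libraries above. Within each of the 4 groups, of 2 libraries each, the library with the higher Myl7 value also had the higher Gja5 value. The part of atrial muscle in the Gja5 values was not tested. The log2 fold changes were -0.46 under SFA and -0.62 under SFA-EAA (limma adjusted p = 0.643 and 0.66), and averaged over both diets -0.54 (95% interval -1.07 to -0.01, adjusted p = 0.32). Without sham SFA replicate 1 and TAC SFA replicate 2 the value under SFA was -0.45. An exon of Gja5 overlaps Gpr89 on the opposite strand by 165 bases, and Gpr89 had values of 86.0 to 115.6. As the use of strand in counting is not given in the sources used here, reads of that stretch could have been given to either gene. Summed markers of arterial endothelium ran from 609.0 to 650.5 in sham SFA, 703.9 to 784.1 in TAC SFA, 560.3 to 596.3 in sham SFA-EAA and 472.1 to 635.1 in TAC SFA-EAA. Genes most like Gja5 in pattern were Lmntd1 (r = 0.98) and Kctd1 (r = 0.97), and those most like Gja1 were Pla2g4e and Bend5 (both r = 0.93).

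Hcn2 (ENSMUSG00000020331, chromosome 10, 79716634 to 79736108, plus strand) had values of 126.4 and 123.8 in sham SFA and 93.9 and 89.1 in TAC SFA. In sham SFA-EAA they were 48.2 and 56.0, and in TAC SFA-EAA 120.8 and 48.9. The 3 libraries whose genes fell with GC content were the 3 lowest, and the other 5 the 5 highest. The SFA-EAA libraries of sham hearts lay below the SFA libraries, with a log2 difference of -1.25 (SE 0.35, limma adjusted p = 0.267) that did not pass. After each library's trend with GC content was removed, this difference was 0.27 (limma adjusted p = 0.677). As diet and trend coincide in sham hearts, the correction cannot separate them. The difference between diets in TAC hearts changed from -0.25 to 0.63 in the same way, and the mean over both operations from -0.75 to 0.45, none of which passed.

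**Figure D2:**
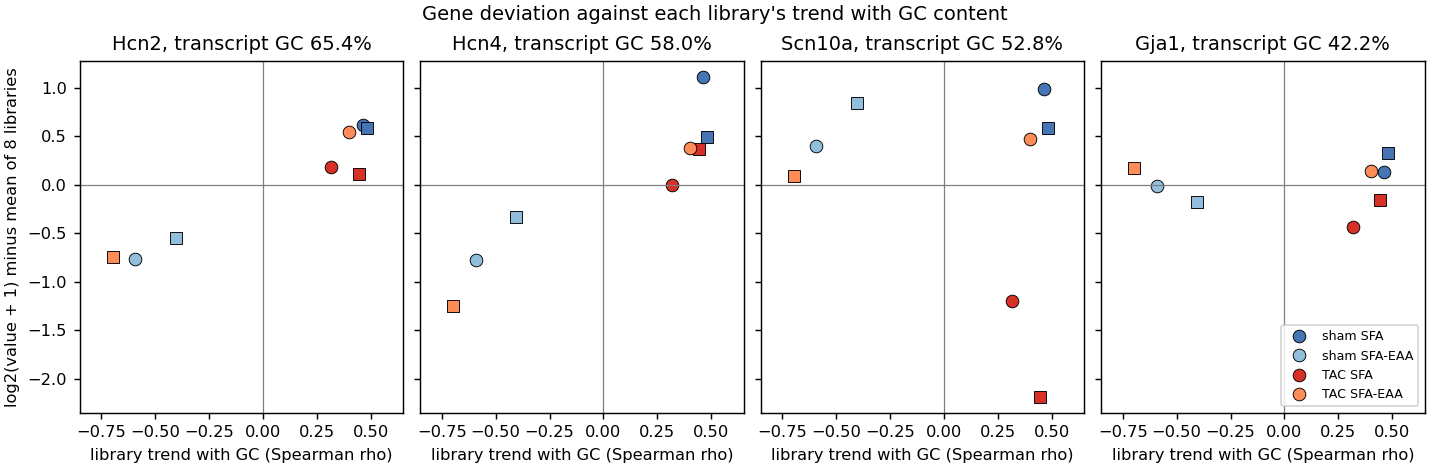
Deviation of log2(value + 1) from its mean over the 8 libraries (vertical axis) for Hcn2, Hcn4, Scn10a and Gja1, against each library's Spearman correlation between gene deviation and GC content (horizontal axis). For Hcn2 and Hcn4 the 3 libraries with a negative correlation lie lowest, and for Scn10a the TAC SFA libraries lie lowest at positive correlations.

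Hcn4 (ENSMUSG00000032338, chromosome 9, 58823412 to 58863175, plus strand) had values of 107.5 and 69.6 in sham SFA and 49.3 and 64.0 in TAC SFA. Those of sham SFA-EAA were 28.3 and 38.8, and those of TAC SFA-EAA 64.5 and 20.1. Again the 3 lowest libraries were those whose genes fell with GC content, and the highest was sham SFA replicate 1, which had the highest Myl7 value. The difference between diets in sham hearts was -1.36 (SE 0.48, limma adjusted p = 0.277), and it was -0.84 after the GC correction (adjusted p = 0.383). In TAC hearts it was -0.62, and -0.18 after the correction. With TAC, the log2 fold change was -0.61 under SFA (adjusted p = 0.676) and 0.12 under SFA-EAA (adjusted p = 0.981), where that of Hcn2 was -0.45 and 0.56 (adjusted p = 0.678 and 0.725). Summed conduction cell markers, with Isl1 and Slitrk5 at 0, ran from 252.1 to 384.8 in sham SFA, 245.7 to 335.4 in TAC SFA, 185.6 to 187.2 in sham SFA-EAA and 89.4 to 254.9 in TAC SFA-EAA. Their part in the Hcn4 values was not tested.

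The patterns of Hcn2 and Hcn4 ran together over the 8 libraries (r = 0.92). Most like Hcn2 were Frs3, a fibroblast growth factor receptor substrate, and Mrpl52, a mitochondrial ribosomal protein (r = 1.00 and 0.99), and most like Hcn4 were Cox6a1, a cytochrome oxidase subunit (r = 0.99), and Pex26, a peroxisomal membrane protein (r = 0.99). The GC content of these 4 was 60.9%, 52.6%, 62.7% and 55.2%, above the median of the tested genes. The promoters of Hcn2 and Hcn4 are printed as the pair that moved together, as the 250 bases before the RefSeq start (GRCm38.p6) at chr10:79716384-79716633 and chr9:58822699-58822948, both on the plus strand. Capitals mark Sp1 matches and, first in Hcn4, the T-box match, and adjacent matches run together.
Hcn2 promoter: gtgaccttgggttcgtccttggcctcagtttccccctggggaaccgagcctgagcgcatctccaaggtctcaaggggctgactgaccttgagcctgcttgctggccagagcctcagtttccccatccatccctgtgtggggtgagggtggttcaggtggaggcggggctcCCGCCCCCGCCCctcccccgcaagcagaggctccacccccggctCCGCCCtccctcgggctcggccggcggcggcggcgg
Hcn4 promoter: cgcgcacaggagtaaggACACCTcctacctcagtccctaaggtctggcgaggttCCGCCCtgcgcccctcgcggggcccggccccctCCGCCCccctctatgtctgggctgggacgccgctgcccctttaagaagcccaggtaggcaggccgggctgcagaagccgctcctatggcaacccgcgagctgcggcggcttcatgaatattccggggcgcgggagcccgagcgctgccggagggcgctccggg
Their GC content was 70.4% and 71.2%, higher than that of 91.2% and 92.2% of all promoters.

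**Figure D3:**
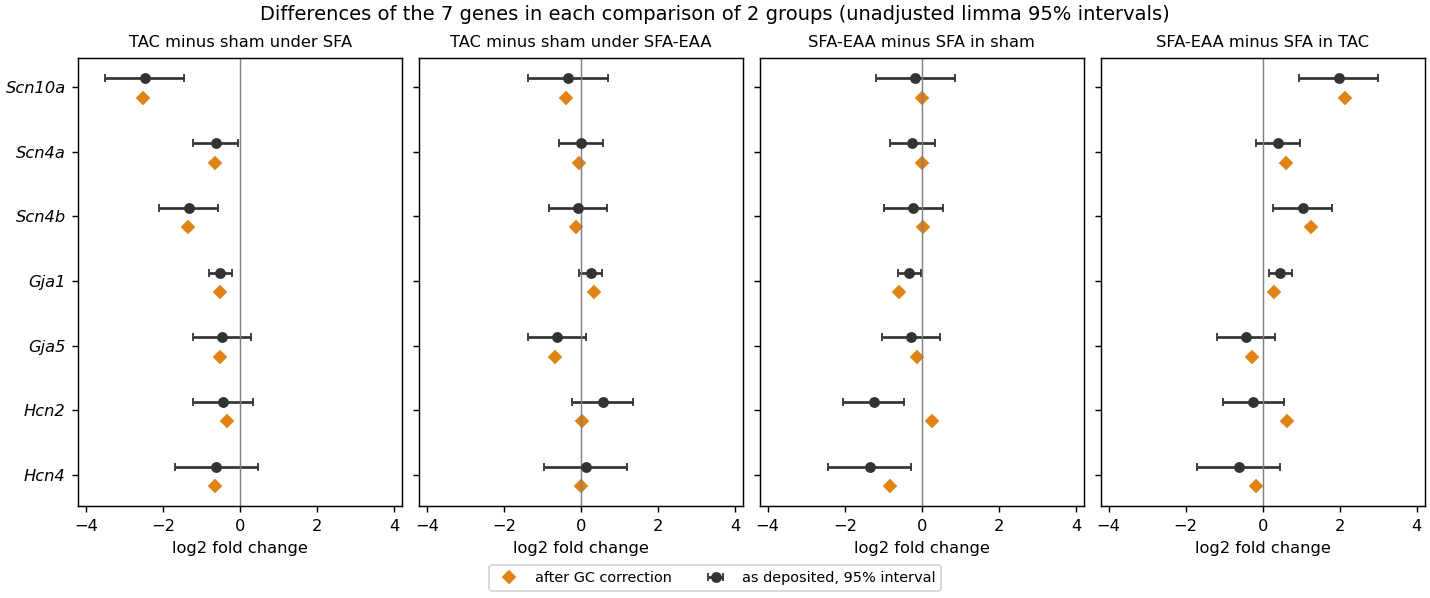
Log2 fold changes (horizontal axes) of the 7 genes (rows) in the 4 comparisons of 2 groups (panels). Circles with unadjusted 95% limma intervals are the deposited values and diamonds the GC-corrected ones. The points of Hcn2 lie on opposite sides of 0 in both comparisons of diets, while those of Scn10a under SFA nearly coincide at -2.48 and -2.53.

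With TAC under SFA-EAA, limma called none of the 7 genes, and 0.0122% of all tested genes were called higher and 0.0% lower. At an unadjusted p under 0.05 the number of members was also 0, out of 1408 genes. The log2 fold change of Hcn2 was 0.56, and 0.02 with GC-corrected values (limma adjusted p = 0.99). Leaving out replicate 2 of TAC SFA-EAA, whose genes fell with GC content, gave 1.20. Leaving out replicate 1 of that group gave -0.086, and each of these fits left 1 library in the group. In sham hearts the diet comparison called no gene at all (0.0%), with 3 members and 2437 genes at an unadjusted p under 0.05. The 3 were Gja1, Hcn2 and Hcn4, each with both SFA-EAA libraries below both SFA libraries, as had 27.6% of the tested genes. Hcn2 and Hcn4 moved across the threshold in that comparison without TAC SFA-EAA replicate 1 or 2, which shares the estimate of spread. Such a fit leaves 1 library in TAC SFA-EAA. With library weights Hcn2 was called lower (limma adjusted p = 0.0386). Settings other than leaving out 1 library called up to 591 of all genes in that comparison.

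In TAC hearts, Scn10a, Scn4b and Gja1 were higher under SFA-EAA than under SFA in both libraries, as were 21.7% of the tested genes. Their log2 differences were 1.97 (SE 0.45), 1.03 (SE 0.34) and 0.45 (SE 0.13), and none passed (limma adjusted p = 0.128, 0.219 and 0.18; 3 members and 2476 genes at an unadjusted p under 0.05, and 0.0122% of genes called higher and 0.0365% lower). With GC-corrected values Scn10a passed (2.14, adjusted p = 0.0394), where 1.18% of genes were called higher. These comparisons share the TAC SFA libraries with the SFA comparison above, so the low TAC SFA values enter both. Without TAC SFA-EAA replicate 1, which leaves 1 library in that group, the differences were 1.42 for Scn4b, -0.89 for Hcn2 and -1.44 for Hcn4. The library left was one whose genes fell with GC content, so diet and base composition cannot be told apart there.

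Whether the effect of TAC differed between the diets was tested directly, and limma called no gene (0.0%; 902 genes and 3 of the 7 members at an unadjusted p under 0.05). The differences of the 3 members were 2.14 for Scn10a (95% interval 0.69 to 3.59, adjusted p = 0.85), 1.26 for Scn4b (0.18 to 2.33, adjusted p = 0.878) and 0.78 for Gja1 (0.35 to 1.20). For Hcn2 it was 1.01 (95% interval -0.11 to 2.12) and 0.36 with GC-corrected values (limma adjusted p = 0.803). Without TAC SFA-EAA replicate 2 it was 1.65, with 1 library left in that group. Averaged over both diets, the TAC effect on Scn10a was -1.41 (limma adjusted p = 0.0653). None of the 7 passed there, where 0.73% of genes were called lower and 1.38% higher. At an unadjusted p under 0.05 there were 3 members and 2522 of all tested genes. Scn10a passed with GC-corrected values (-1.46, limma adjusted p = 0.0204), where 3.27% of genes were called lower. Averaged over both operations, the diet effect was -0.75 for Hcn2 and -0.99 for Hcn4 (limma adjusted p = 0.123 and 0.131). None of the 7 was called there, where 0.724% of genes were called lower and 0.487% higher. An unadjusted p under 0.05 was reached by 3 members and by 3808 of all tested genes. Without TAC SFA-EAA replicate 1, which leaves 1 library in that group, the values for Hcn2 and Hcn4 were -1.07 and -1.40. The library left, replicate 2, was one whose genes fell with GC content, so diet and base composition cannot be told apart there.

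Other genes of the same systems were taken from fixed lists, and few members were called. Of 11 further sodium channel subunits 7 were tested, and with TAC under SFA none was called by limma. The median log2 fold change was 0.29 against 0.01 over all tested genes, and 1 subunit had an unadjusted p under 0.05. Of all 16432 genes tested, 2197 had an unadjusted p under 0.05 in that comparison. That number is the background for the same counts in the lists below. Scn7a, an atypical sodium channel, had a log2 fold change of -0.03 under SFA.

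All 13 sodium channel partners were tested and none was called with TAC under SFA (2 at an unadjusted p under 0.05; median -0.22). Among the most abundant, the log2 fold change was -0.10 for Camk2d, a calcium-dependent kinase, and -0.27 for Ank2, the membrane adaptor ankyrin B. Of 9 further genes of pacemaking 7 were tested and none was called (0 at an unadjusted p under 0.05; median 0.27). The T-type calcium channel genes Cacna1g and Cacna1h had log2 fold changes of 0.41 and -0.21, and Mrvi1 of -0.05. Of 18 further connexins only 5 were tested, and 8 were at 0 in all libraries. None was called (1 at an unadjusted p under 0.05; median 0.07). Gjc1, which encodes connexin 45, was lowest at 65.2 in sham SFA-EAA replicate 1 and highest in TAC SFA replicate 2. Gja3 stood at 14.9 to 46.6 and the arterial endothelial connexin gene Gja4 at 16.5 to 55.2.

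Among 12 partners of the intercalated disc, the junction between cardiomyocytes where connexin 43 gathers, none was called with TAC under SFA (3 at an unadjusted p under 0.05; median 0.04). Pkp2, the desmosomal protein plakophilin 2, was called higher with TAC averaged over both diets (0.38, limma adjusted p = 0.047), as were 1.38% of all tested genes. Its values were 741.5 to 862.6 in the 4 sham libraries and 995.5 to 1149 in the 4 TAC libraries. The desmoplakin gene Dsp and the alpha catenin gene Ctnna1 had log2 fold changes of 0.22 and -0.21 under SFA. With TAC under SFA, 0.414% of all tested genes were called lower and 0.834% higher. Of 18 tested conduction transcription factors out of 19, 1 was called lower there and none higher (3 at an unadjusted p under 0.05, median -0.14). It was Hopx, a homeodomain-only protein of conduction tissue and myocardium, with 1532 and 1576 in sham SFA, 754.3 and 674.9 in TAC SFA, 1050 and 1036 in sham SFA-EAA and 1232 and 948.8 in TAC SFA-EAA (log2 fold change -1.12, limma adjusted p = 0.008). Gata4 and Tbx20, cardiac factors of broad expression, had log2 fold changes of -0.07 and 0.34.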

How the data were processed

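Per the submitters' processing notes, the authors used STAR 2.5, edgeR and the genome build GRCm38. Which counter and annotation release were used, and whether strand was, is not given in the sources used here. The deposited table holds a normalized signal per gene and library; the values are not whole, so no count test was run, and the depth in reads is unknown. Levels per kilobase use the deposited gene length.

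Limma-trend (limma 3.58.1, R 4.3.3) was applied to log2(value + 1) of the 16432 genes that reached 1 in 2 or more libraries. All 8 libraries shared one spread. In each of 7 comparisons the two-sided p-values were adjusted by Benjamini and Hochberg's method over all tested genes (threshold 0.05). The fit was tested on simulated data without a trend with GC content, so that test does not cover the difference in base composition. For the GC correction, a loess curve (span 0.3) of gene deviation on transcript GC content, fitted to genes averaging 10 or more, was subtracted library by library. Transcripts were from GENCODE M21, where 91.5% of 49326 matched genes had the deposited coordinates (Gja1 did not), and promoters from RefSeq.

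The members and lists were chosen with earlier results of these data known. Named besides the members and the label checks Nppa, Myh7 and Myl7 are the genes of each list called in any comparison, filled up to 3 by mean value, and the 2 genes most correlated with each member (mean of at least 10, no predicted gene models). Some genes that this rule names are not reported here.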

Additional observations from a re-analysis of the deposited data

Results flagged for a closer look

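Gja1 was singled out because its libraries moved in opposite directions with TAC on the 2 diets: both TAC libraries lay below both sham libraries under SFA, and both above under SFA-EAA. The difference between the effects was 0.78 on the log2 scale, and it did not pass over all genes (limma adjusted p = 0.785).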

How the results depend on the processing

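Each value was recomputed under up to 19 other settings, giving 676 values for 36 gene results, of which 610 kept their direction and side of the threshold, 11 lost the call, 25 gained it and 30 changed sign. All 11 lost calls were of Scn10a with TAC under SFA, the 1 result that was called at first. Its call was kept in 2 of 8 fits with 1 library left out and in 6 of 11 other settings. Most of the 610 values belong to results that were not called at first and stayed so. For TAC under SFA, 0 members were called with a pseudocount of 0.25, no filter, a replicate block, the fit to the 4 libraries compared, or sham SFA replicate 1 and TAC SFA replicate 2 both left out, and 3 with the GC correction or library weights. Leaving out 1 library changed the number of members called in at least 1 fit of every comparison. The number of calls over all genes changed in every comparison as well. Each of these fits left 1 library in a group, so their calls are not counted here. Library weights gave 1 member for diet in sham hearts, and the GC correction 1 for diet in TAC hearts. The mean TAC effect had 1 with a minimum value of 5, with the GC correction and with that correction plus the replicate block.

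Signs changed as follows, and the cause was not tested. For TAC under SFA-EAA, Scn4a was -0.022 with quantile normalization, -0.014 with median-of-ratios scaling and -0.046 with the GC correction, with or without the replicate block, and Hcn4 was -0.0052 with that correction, again with or without the block. For diet in sham hearts the GC correction, with or without the block, gave 0.0046 for Scn4a, 0.022 for Scn4b and 0.27 for Hcn2, and leaving out both named SFA libraries gave 0.034 for Scn10a and 0.010 for Gja5. The same correction gave Hcn2 0.63 for diet in TAC hearts and 0.45 for the mean diet effect. With 1 library left out, the TAC effect under SFA-EAA ran from -0.30 to 0.31 for Scn4a, -0.47 to 0.31 for Scn4b, -0.086 to 1.20 for Hcn2 and -0.69 to 0.94 for Hcn4. The diet effect in sham hearts ran from -0.39 to 0.053 for Scn10a and -0.58 to 0.010 for Gja5, and in TAC hearts from -0.89 to 0.40 for Hcn2 and -1.44 to 0.20 for Hcn4.

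Over all genes, TAC under SFA gave 205 calls (137 higher, 68 lower), 96 with the replicate block, 322 with a minimum of 5, 833 with the GC correction (391 higher, 442 lower), 728 with library weights and 0 in the fit to 4 libraries. The difference of replicate 1 from replicate 2, gene by gene, correlated between groups at -0.22 to 0.04 over 6 pairs of groups. No pairing by number was seen. Base composition also differed within TAC SFA-EAA, so this cannot decide whether libraries shared a batch. With 2 libraries per group and reads per gene unknown, low genes such as Scn10a are measured with an error that cannot be separated into counting and other parts.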
